A study of Solanum lycopersicum with 6 samples.

Results

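The first 29 Mb of tomato chromosome 2 carried 1004 of the 80696 accessible regions (peaks) that ATAC-seq gave in inflorescences of the meristem-overproducing mutant anantha. Members are the peaks whose midpoint lies below position 29000000 of chromosome 2 in build SL4.0. This limit was chosen from the peak counts themselves, as the end of the peak-poor side of the chromosome, so the low number of peaks in the region is a description and not a result. The last 3 peaks inside the limit lay at chr2:28828568-28829661, chr2:28903313-28903841 and chr2:28970739-28971066, with −log10 q values of 7.72, 5.61 and 3.23. The first 3 peaks beyond it lay at chr2:29038588-29038912, chr2:29069330-29070277 and chr2:29070326-29070864, with −log10 q values of 3.84, 6.01 and 1.89.

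All 6 samples form 1 group of Solanum lycopersicum plants in the M82 cultivar that carry the allele anantha-e1546, with no wild type, treatment or other genotype beside them. Each biological replicate started from 1 g of inflorescences, of which the age is not given. ANANTHA encodes an F-box protein that gives meristems their floral identity, and mutants make more meristems where flowers would form. The deposited result is 1 peak list for all replicates, so neither values of single replicates nor their error can be given, and sequencing depth is unknown. The spread given below is that among the other 11 chromosomes, and intervals on counts and shares cover counting error only, with neighbouring peaks not independent.

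In ATAC-seq a transposase cuts and tags DNA where it is not wrapped in nucleosomes, so called peaks mark open chromatin such as active promoters and enhancers. Tomato chromosomes have gene-rich ends and a large heterochromatic centre around the centromere, rich in repeats and poor in genes. Chromosome 2 differs in its build, because its short arm carries the nucleolus organizer, the tandem arrays of ribosomal RNA genes from which the nucleolus forms, and little other gene-rich sequence. Where the organizer and the centromere lie in build SL4.0 was not analysed here, nor were genes, exons or promoters at the peaks or their sequences, since no genome or annotation of this build was used. The handling of reads that match several places is not given in the sources used here, so the values describe calls, and the part of repeats in them was not tested.

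The region made up 54.3% of the span of chromosome 2 and held 12.4% of its peaks, or 1.25% of the 80175 peaks on the 12 chromosomes. It had 34.6 peaks per Mb (95% exact Poisson interval 32.5 to 36.8), against 291.0 in the remaining 24.4 Mb of the chromosome. The interiors of the other 11 chromosomes, each taken as its peak-poor interval of 25 to 61 Mb, had 29.6 ± 3.72 peaks per Mb (SD, n = 11). Only that of chromosome 6 was denser, with 35.1. Peaks covered 3.43% of the region, against 2.90% ± 0.40 of the other interiors (SD, n = 11) and 28.2% of the rest of chromosome 2. The highest cover among the other interiors was 3.66% on chromosome 8. Both ranks turn on the limit. With a limit at 30 Mb the region had 37.9 peaks per Mb and 3.79% cover, each above all of the other interiors. With a limit at 25 Mb it had 29.96 peaks per Mb and 2.92% cover, each close to the mean of the other interiors.

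The start of chromosome 2 lacked the dense terminal zone that each of the other chromosomes had. The first Mb held 13 peaks over 11.4 kb, against a mean of 298.3 ± 31.5 peaks over 317.2 ± 44.6 kb in the first Mb of the others (SD, n = 11). The lowest of these was chromosome 11 with 252 peaks. In each of the first 7 Mb, chromosome 2 had fewer peaks than any other chromosome. The first 5 Mb held 96 peaks on chromosome 2 and 1055 to 1681 on the others. From the eighth Mb on the counts overlapped, with 42 peaks on chromosome 2 and 19 to 169 on the others, 3 of which were lower. These other counts fell inward while those of chromosome 2 stayed between 8 and 42 over its first 10 Mb.

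**Figure D1:**
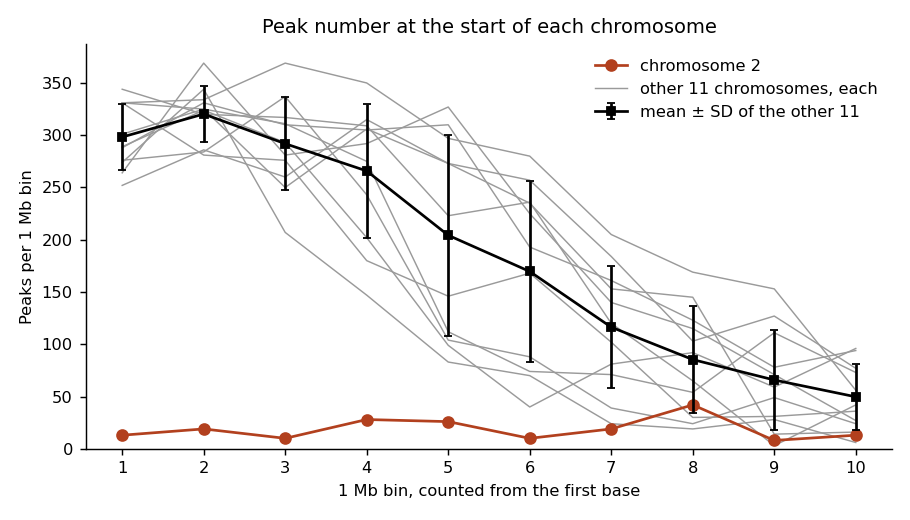
Number of peaks in each of the first 10 bins of 1 Mb, counted from the first base, on chromosome 2 (circles), on each of the other 11 chromosomes (thin lines) and as their mean ± SD (squares). Chromosome 2 starts at 13 peaks where the others have 252 to 344, and the lines meet from the eighth bin on.

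The few peaks of the first Mb were spread unevenly. The first lay at chr2:67986-68848, with a −log10 q of 4.94, whereas on the other chromosomes the first peak began between positions 529 and 29114. A group of 4 neighbouring peaks between 394821 and 402614 held the strongest of this Mb, chr2:395961-398468, with a −log10 q of 11.4. The last peak of the Mb, chr2:972245-972713, stood 311.5 kb from the one before it and 296.3 kb from the one after it. Of the 13 peaks, 10 had the score at its cap of 1000, or 76.9%, against 59.2% ± 3.23 in the first Mb of the other chromosomes (SD, n = 11) and 61.6% of all peaks. The median −log10 q of this Mb was 4.52, against 3.40 ± 0.26 in the first Mb of the others. It was the highest of the 29 bins of the region, while the next Mb had the lowest with 1.97 over 19 peaks. Bins of so few peaks set these medians loosely.

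Over the first 5 Mb, unlike the first Mb, the typical peak was weaker than at the starts of the other chromosomes. Over the first 5 Mb the median −log10 q was 2.56 on chromosome 2, against 3.50 ± 0.18 on the other chromosomes, the lowest of which had 3.23 (SD, n = 11). Of these peaks, 69.8% had another within 2 kb, against 91.1% ± 1.40 on the others, which held many more peaks in the same length. Since the low peak number chose the region, this share is a description and not a further result. Median peak width was 688 bp, against 698 ± 22.4 bp on the others (SD, n = 11), a difference smaller than their spread. For −log10 q, the first 5 Mb of the others lay mostly outside their peak-poor interiors. On each of the 12 chromosomes, peaks outside the interior had a higher median −log10 q than those inside. The part of this in the difference at the start was not tested.

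Along the region the number of peaks per 1 Mb bin had a median of 26, from 6 to 105. A division at 20 Mb, set after the counts were seen, separates a sparser from a denser part. The first 20 Mb held 393 peaks, or 19.7 per Mb (95% exact Poisson interval 17.8 to 21.7), and each of its 20 bins had 42 peaks or fewer. From 20 to 29 Mb there were 611 peaks, or 67.9 per Mb (62.6 to 73.5), which is 3.45 times as many per Mb. The lowest bins were those from 10000001 to 11000000 and from 12000001 to 13000000, with 6 peaks each.

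The rise toward the limit was uneven. The densest bins ran from 23000001 to 24000000 with 105 peaks, from 25000001 to 26000000 with 100 and from 21000001 to 22000000 with 95. Between them, the bin from 24000001 to 25000000 had 37 peaks. Past the limit, the 4 Mb from 29 to 33 Mb had 146.0 peaks per Mb, and the rest of the chromosome 319.4. The step to the dense arm was thus spread over several Mb. In windows of 100 kb, 125 of 290 held no peak, and the fullest, from 28000001 to 28100000, held 37 of the 64 peaks of its Mb.

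**Figure D2:**
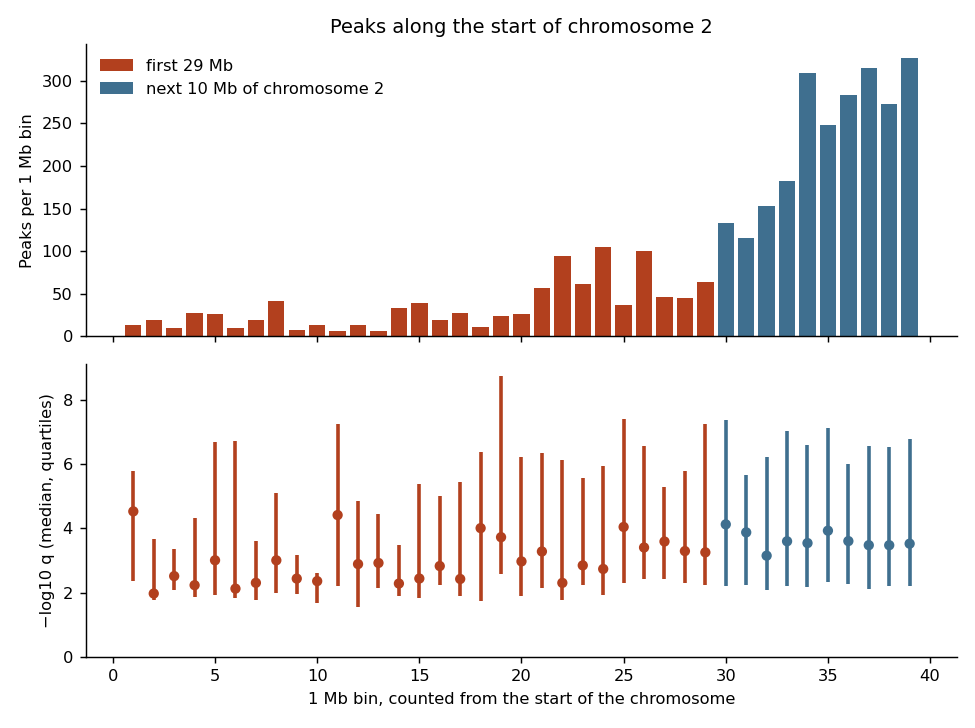
Upper panel, number of peaks in each 1 Mb bin of the first 29 Mb of chromosome 2 and of the 10 Mb after it. Lower panel, median −log10 q of the peaks in the same bins, with lines from the lower to the upper quartile. Bins 1 to 20 hold at most 42 peaks and bin 24 holds 105, while medians range from 1.97 to 4.52 in the region.

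The sparse sequence of chromosome 2 was not empty. Every one of its 29 bins held at least 6 peaks, whereas 14 of the 494 bins in the other 11 interiors held none, on 9 of those chromosomes. The interiors of chromosomes 7 and 12 also had no empty bin. Empty bins were thus rare everywhere, and since bin counts chose the region these numbers are a description. Bins with 5 peaks or fewer numbered 68 of the 494, from 2 on chromosome 4 to 12 on chromosome 9, and 0 in the region. The longest stretch without a peak ran from 7896488 to 8883940, or 0.99 Mb, against 1.65 ± 0.30 Mb in the other interiors (SD, n = 11), where chromosome 5 had the shortest with 1.21 Mb. Longer intervals can hold longer stretches. Chromosome 6, with an interval of 25 Mb, had one of 1.72 Mb. Over the central 29 Mb of each interval, however, the mean of the others was 1.48 ± 0.39 Mb (SD, n = 11). There chromosome 4 came as low as 0.99 Mb and chromosome 11 had 1.01 Mb. The next longest stretches of the region ran from 10231286 to 10895146 (663.9 kb), from 12256593 to 12897579 (641.0 kb), from 13206892 to 13778516 (571.6 kb) and from 17525643 to 18054028 (528.4 kb). Stretches of 100 kb or more numbered 78 and made up 69.7% of the region, against 72.9% ± 3.79 of the other interiors (SD, n = 11).

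**Figure D3:**
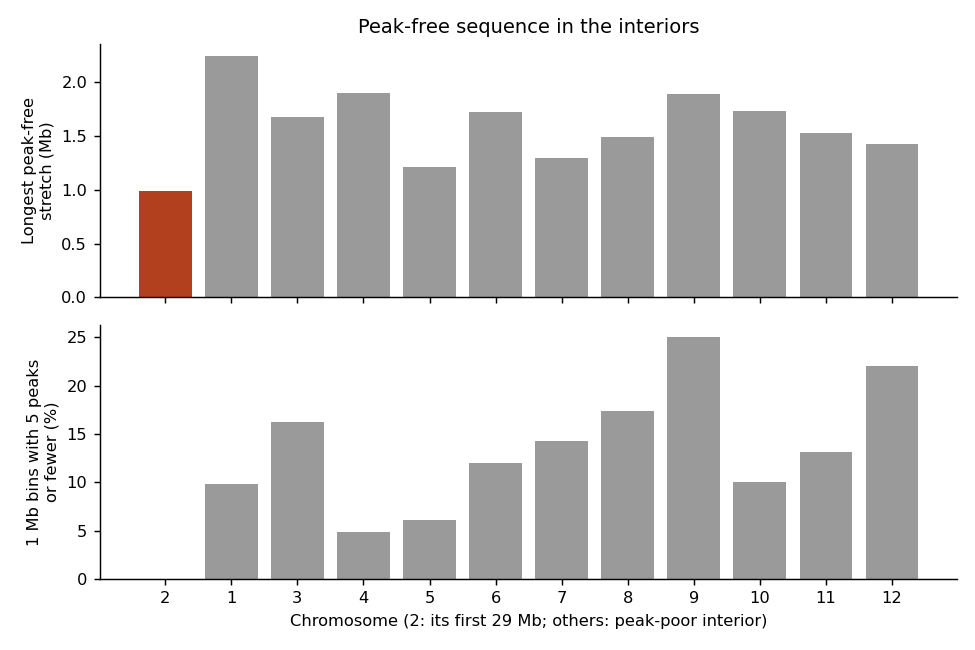
Longest stretch without a peak (upper panel) and share of 1 Mb bins with 5 peaks or fewer (lower panel) in the first 29 Mb of chromosome 2, drawn first, and in the peak-poor interior of each other chromosome. The region has the shortest maximum, 0.99 Mb, and no bin with 5 peaks or fewer. The intervals differ in length, and over the central 29 Mb of its interval chromosome 4 also has 0.99 Mb.

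The typical peak of the region was weak. The authors' −log10 q had a median of 2.87 in the region, with quartiles of 1.98 and 5.89, against medians of 3.18 ± 0.15 in the other interiors (SD, n = 11). This was the lowest of the 12 chromosomes, next to 2.89 on chromosome 6 and 2.99 on chromosome 12, and its difference from the mean of the others was -2.01 of their SD. With 1 chromosome against 11, an exact permutation test cannot give a p below 0.083, so no test was made and the difference is a description. Its place as the lowest depended on the processing. With a q at or below 0.01 the median of the region was the fourth lowest, with peaks within 100 bp merged the third lowest, and the second lowest both with the limit at 30 Mb and with the middle of 3 equal parts of each other chromosome as its interior.

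With the limit at 29 Mb, the contrast with the chromosome's own arm was the greatest of the 12. The median −log10 q was 2.87 in the region and 3.70 in the rest of chromosome 2, a difference of -0.83. On the other chromosomes the interior differed from the rest by -0.40 ± 0.15 (SD, n = 11). The extremes were -0.75 for chromosome 6 and -0.19 for chromosome 8. With the limit at 30 Mb the difference on chromosome 2 was -0.71, smaller than that on chromosome 6. Of the 29 bins, 24 had a median below that of the rest of chromosome 2. Medians of single bins showed little relation to the number of peaks in the bin, with Spearman's rho of 0.07 and Pearson's r of -0.02. Each of the 29 bins of the same list counted alike there, some of them of few peaks. Pooled over bins of the region, however, the peaks of sparser bins were weaker than those of denser bins. The division at 40 peaks was chosen after the data were seen. In bins of 40 peaks or fewer, the median was 2.65 in the region, against 3.14 ± 0.24 in the other interiors (SD, n = 11). In bins of more than 40 peaks it was 3.001 in the region, the third lowest, against 3.21 ± 0.16. Bins were not matched for peak number within these classes. The order was not general. In the interiors of chromosomes 3, 4, 7 and 12 the sparser bins had the higher median, and in the remaining ones the lower.

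**Figure D4:**
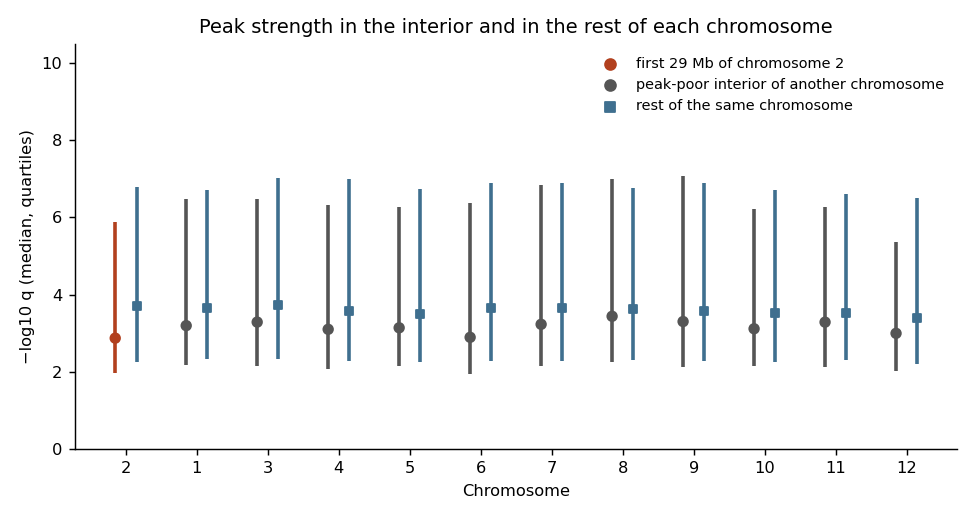
Median −log10 q, with lines from the lower to the upper quartile, of peaks in the first 29 Mb of chromosome 2 (drawn first), in the peak-poor interiors of the other chromosomes (circles) and in the rest of the same chromosome (squares). Chromosome 2 has the lowest interior median, 2.87, close to 2.89 on chromosome 6, beside 3.70 in its rest.

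Taken over the whole region, the shift lay in the weak and middle strengths and not among the strongest peaks. A q at or below 0.01 was carried by 742 members, or 73.9% (95% exact binomial interval 71.1 to 76.6), against 78.8% ± 2.76 in the other interiors (SD, n = 11) and 82.4% of all peaks on the 12 chromosomes. The score was at its cap in 52.7% (49.5 to 55.8), against 56.7% ± 2.16 in the other interiors and 61.6% of all peaks. A −log10 q of 10 or more was reached by 126 members, or 12.5% (10.6 to 14.8), against 12.1% ± 1.78 in the other interiors (SD, n = 11), 11.2% in the rest of chromosome 2 and 11.8% of all peaks. Peaks between 6 and 10 made up 11.7% of the region, below each of the other interiors (13.01% to 16.5%) and against 18.5% in the rest of the chromosome. Peaks under 2 made up 26.1%, against 21.2% ± 2.76 in the other interiors, where chromosome 6 had 27.8%. The 90th percentile of −log10 q was 10.98 in the region, against 10.8 ± 0.65 in the other interiors (SD, n = 11) and 10.53 in the rest of chromosome 2. These pooled values hide a difference along the region. In the first 20 Mb the 90th percentile was 9.64, and 9.41% of the peaks reached 10 or more. From 20 to 29 Mb the values were 11.66 and 14.6%. The lowest of the other interiors, that of chromosome 12, had 9.49 and 8.77%.

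**Figure D5:**
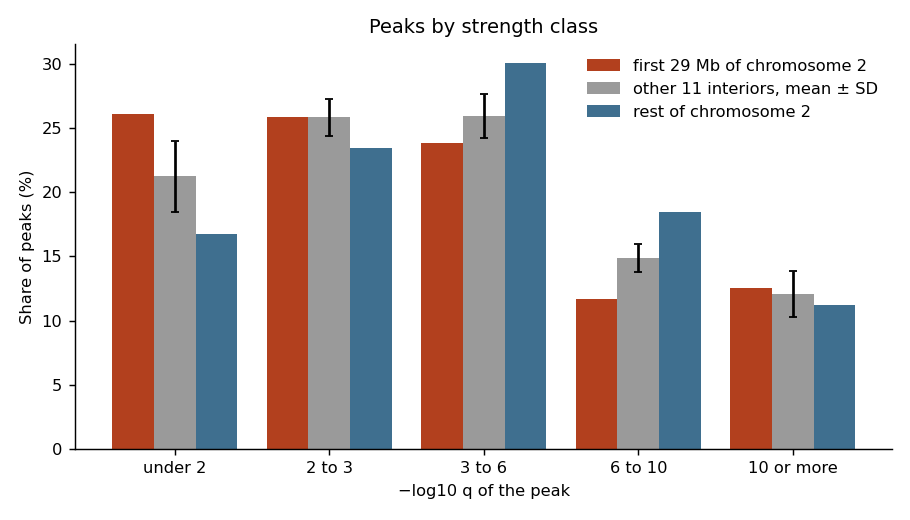
Share of peaks in 5 classes of −log10 q in the first 29 Mb of chromosome 2, in the other 11 interiors (mean ± SD) and in the rest of chromosome 2. The region exceeds the mean of the interiors in the weakest class, is below it from 6 to 10 and lies within 1 SD of it at 10 or more.

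Most of the strong peaks lay toward the dense arm. Of the 126 members with a −log10 q of 10 or more, 89 lay from 20 to 29 Mb, which is 70.6% of them in 31.03% of the length and among 60.9% of the peaks. The share of such peaks was 14.6% from 20 to 29 Mb (95% exact binomial interval 11.9 to 17.6) and 9.41% in the first 20 Mb (6.72 to 12.7), so that these intervals overlap. The median −log10 q was 3.04 from 20 to 29 Mb and 2.63 in the first 20 Mb. In 24 of the 29 bins there was at least 1 such peak, with up to 17 in the bin from 25000001 to 26000000.

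The strongest member, chr2:24527152-24529541, had a −log10 q of 24.97 and was the second strongest peak of the 12 chromosomes. It lay in a bin of 37 peaks. The third strongest, chr2:24513142-24516389 with 20.5, ended 10762 bp before it. Of the 10 strongest members, 8 lay from 20 to 29 Mb, which held 60.9% of all members. Of the same 10, 4 lay in the single bin from 25000001 to 26000000, which held 100 of the 1004 members. These 4 were chr2:25325286-25328778 (20.6), chr2:25597649-25600349 (18.9), chr2:25376179-25379856 (18.6) and chr2:25908315-25913807 (18.6). Each of the 10 had another peak within 2 kb, as did 79.1% of all members.

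Some of the strong peaks stood at the edges of peak-free sequence. Peak chr2:25325286-25328778 belonged to a group of 6 peaks that started at 25319883, directly after an empty stretch of 527.04 kb. Peak chr2:13780602-13787152, with a −log10 q of 18.8 and the greatest width of the region (6551 bp), belonged to a group of 3 that started at 13778517, directly after the empty stretch of 571.6 kb. It was followed by 42.05 kb without a peak. Peak chr2:17500642-17506805, with 19.2 and a width of 6164 bp, followed 27.6 kb without a peak. These neighbourhoods were noticed after their values were seen and no test was made of whether strong peaks lie at such edges more often than others. Joined over gaps of up to 2 kb, the peaks formed 447 groups, with 120 gaps of 20 to 100 kb and 78 longer ones between groups. A long gap beside a group is thus common in the region. The strongest member had neighbours 196 and 221 bp away.

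Median peak width differed little from that elsewhere when all peaks were kept. It was 716 bp, with quartiles of 460 and 1212 bp, against medians of 696 ± 30.2 bp in the other interiors (SD, n = 11) and 705 bp in the rest of chromosome 2. The difference of 19.7 bp from the other interiors was smaller than their spread. When weaker peaks than a q of 0.01 were left out, the median was 847 bp in the region, against 785 ± 40.6 bp in the other interiors (SD, n = 11), of which only chromosome 9 was higher. The widest peak of the region, of 6551 bp, was narrower than the widest of each other interior, of which the smallest measured 7258 bp and the greatest 33327 bp. The next widest were chr2:25849032-25855436 (6405 bp, −log10 q 13.9), chr2:17500642-17506805, chr2:21003361-21009281 (5921 bp, 11.3) and chr2:23578716-23584436 (5721 bp, 14.1). A width of 5 kb or more was found in 8 members, or 0.80%, against 0.82% ± 0.48 in the other interiors. Stronger members were wider, from a median of 544 bp at a −log10 q under 2 to 1949.5 bp at 10 or more, and Spearman's rho between width and −log10 q was 0.54 over the 1004 peaks, against 0.53 ± 0.03 in the other interiors.

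Although peaks were few per Mb, most were not alone. Another peak lay within 2 kb of 79.1% of the members (95% exact binomial interval 76.4 to 81.6), against 79.7% ± 1.92 in the other interiors (SD, n = 11) and 91.2% in the rest of chromosome 2. The share was not even along the region. It was 74.3% in the first 20 Mb, below the lowest other interior (76.1% on chromosome 12), and 82.2% from 20 to 29 Mb. Another peak within 100 bp was present for 36.1% of the members, against 34.7% ± 2.57 in the other interiors and 39.3% in the rest of chromosome 2. The gaps between neighbouring peaks covered a wide range. Of 1003 gaps, 206 were of 100 bp or less, 351 ran from 100 bp to 2 kb, 248 from 2 to 20 kb, 120 from 20 to 100 kb and 78 were longer. Gaps of 20 to 100 kb made up 11.96% in the region, against 12.99% over the other interiors and 1.39% in the rest of chromosome 2. Gaps over 100 kb made up 7.78% in the region, against 8.38% over the other interiors and 0.08% in the rest of chromosome 2.

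Joined over gaps of up to 2 kb, the 1004 peaks formed 447 groups, of which 210 were single peaks. There were 15.4 groups per Mb, against 12.98 ± 1.46 in the other interiors (SD, n = 11), the highest of which had 15.2. Peak density chose the region and its rank turned on the limit, so this number is a description. Groups per Mb with other limits are not given. The mean size was 2.25 peaks, against 2.28 ± 0.10 in the other interiors (SD, n = 11) and 3.69 in the rest of chromosome 2. Groups of 5 or more held 28.9% of the peaks, against 28.5% ± 2.74 in the other interiors and 60.8% in the rest of chromosome 2. The largest group had 14 peaks and ran from 23443564 to 23464409, with a highest −log10 q of 17.2 and a median of 2.62. Groups of 13 and 10 peaks followed each other at 25822208 to 25837220 and 25839641 to 25864340, and one of 11 ran from 28066562 to 28083780. In the sparse first 20 Mb the largest group had 10 peaks, from 6537816 to 6549075, none above a −log10 q of 6.96. Members with no other peak within 2 kb had a median −log10 q of 2.95, against 3.49 ± 0.36 for such peaks in the other interiors, the lowest of which had 3.13 (SD, n = 11).

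The weakest member, chr2:16390247-16391125, had a −log10 q of 0.98 and a score of 251. A q above 0.05 was carried by 14 members, or 1.39%. The share at or below 0.05 was 98.61%, against 98.85% ± 0.43 in the other interiors (SD, n = 11), a difference smaller than their spread. Of the 475 members below the score cap, the median score was 645. The narrowest member, chr2:27520972-27521120, measured 149 bp with a −log10 q of 2.56.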

How the data were processed

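Nuclei from inflorescences were treated with Nextera transposase and sequenced as paired reads of 50 bases, per the labels' protocols. Trimmomatic, BWA, Picard, SAMtools, bedtools and Genrich 0.6 are named in the submitters' processing notes, without their roles. The authors deposited 1 peak list for all 6 samples. Per its file name, Genrich was run with 0.5 for q and 30 for the gap, and its chromosome names give build SL4.0. The deposited score of each peak is a whole number up to 1000, and the deposited −log10 q stands in the peak's name. Treatment of duplicates, organelle reads and transposase offset is not given in the sources used here.

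Peaks were assigned by midpoint, positions are 1-based, and a chromosome's span ends with its last peak. To find peak-poor interiors, the shortfall of each 1 Mb bin against mean density was summed, and the stretch with the greatest sum was taken; on chromosome 2 it equals the region described. Merged peaks took the highest −log10 q and score. The search for the interval was tested on simulated data with sharp steps in density at bin edges. The rise on chromosome 2 is gradual, so that test does not bear on where its limit lies. Poisson and binomial intervals are exact (95%). Peaks named are the 10 strongest, the 5 widest, 3 on each side of the limit, those of the first Mb, the 3 densest bins and the 5 longest empty stretches; the 527.04 kb stretch, the largest groups, and the weakest and narrowest peaks were added after their values were seen. Members, limits and measures were chosen with earlier results of these data known. Alternatives were limits on q, merging within 100 bp, other ends of the region, another interior and a neighbour distance of 5 kb. Genes were not analysed, as the table of genes at hand is for a different assembly. Values were computed in Python 3.11.15 with pandas 2.3.3, numpy 2.4.6 and scipy 1.17.1, and drawn with matplotlib 3.10.9.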

Additional observations from a re-analysis of the deposited data

How the results depend on the processing

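Replicates could not be left out, and no paired analysis was possible because the list does not separate the replicates of its 1 group. Medians, shares of peaks and differences were taken as moved where they changed by more than 1 SD among the other chromosomes, and peak numbers, peaks per Mb and cover where they changed by more than 1.5 times. The number of peaks (742 to 1137) and peaks per Mb (25.6 to 37.9) stayed within that range under each limit on q, merging and each planned end of the region, and the first Mb (11 to 13 peaks) under each limit on q and merging. With a q at or below 0.01, which removes the weakest peaks, the difference from the other interiors became -0.145 in median −log10 q, 62.5 bp in width, -0.652 percentage points in the share at the score cap and -3.00 in the share with a neighbour within 2 kb, and the difference from the rest of chromosome 2 became -0.564 in −log10 q and 71.0 bp. Merging gave -0.989 and -23.0 bp against the rest of chromosome 2, a change of sign in width, the cause of which was not tested. With the limit at 25 Mb, −log10 q differed by -0.490 from the other interiors and by -0.995 from the rest of chromosome 2, and the share at the cap by -6.93. With the middle of 3 equal parts as interior, the share with a neighbour differed by 2.16, a change of sign whose cause was not tested. Chosen after seeing the data, the first 20 Mb alone gave 19.7 peaks per Mb and a difference of -0.548 in −log10 q. Their median width of 695 bp differed by -1.27 bp, a change of sign whose cause was not tested. The share at the cap differed by -7.88 and that with a neighbour by -5.43. Bins of 40 peaks or fewer, also chosen after seeing the data, gave -0.491 in −log10 q and -6.28 at the cap. The median −log10 q was below the mean of the other interiors under each of these settings. Depth is unknown, so sequence without a peak is sequence without a call.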
